A study of Mus musculus with 13 samples.

Results

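Cxcl9, Cxcl10 and Cxcl11 are chemokines of the CXC class that interferons induce. They share 1 receptor, CXCR3, and are 3 of the 47643 genes in the deposited count table. They were chosen by name, because in earlier results of these data their levels went up after LPS and further with CPD-4645 while other chemokines went down. Their own values are therefore given below as a description, without a test.

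RNA was sequenced from the neurovascular fraction of the brain of 13 male CD1 mice, an outbred stock, aged 8 to 10 weeks. The 4 sham-vehicle mice received no LPS. The 5 LPS-vehicle mice received lipopolysaccharide (LPS) of salmonella enterica typhimurium at 3 mg/kg intraperitoneally at 0, 6 and 24 h. The 4 LPS-CPD-4645 mice received the same LPS and, subcutaneously 30 min after each injection, CPD-4645 at 10 mg/kg. That interval is the one in the labels, and the study also gives a longer one. CPD-4645 is an inhibitor of monoacylglycerol lipase (MAGL), the enzyme that breaks down the endocannabinoid 2-AG, and its vehicle was a mixture of DMSO, Cremophor and saline. All brains were taken at 28 h and had not been perfused, so the fraction can hold blood cells. No group received CPD-4645 without LPS. Total counts ran from 7813559 in LPS-vehicle mouse 3 to 55133373 in LPS-vehicle mouse 2, with a median of 26989885, and the next shallowest library was that of LPS-CPD-4645 mouse 1, at 12548404. The fraction held neuronal, oligodendrocyte and astrocyte transcripts beside vascular ones: the summed level of 7 neuron markers was 7619 to 10545 CPM (counts scaled to library size) per mouse, and that of 11 endothelial cell markers was 405 to 910 CPM. In bulk RNA a larger number of cells of a type and more RNA per cell cannot be told apart.

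CXCR3 is carried mainly by activated T cells and NK cells, and its ligands draw these cells towards inflamed tissue. Cxcl9 is induced mainly by interferon gamma. Cxcl10 also answers to type I interferon and to NF-kB, the transcription factor downstream of the LPS receptor, and Cxcl11 answers to both kinds of interferon. In brain vessels and glia these genes are typical markers of an interferon response.

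The 3 genes lie side by side on the minus strand of chromosome 5 (GRCm38), within 44.139 kb. Cxcl9 (ENSMUSG00000029417.9) spans 92321347 to 92328079, Cxcl10 (ENSMUSG00000034855.13) spans 92346638 to 92348889, and Cxcl11 (ENSMUSG00000060183.6) spans 92359544 to 92365485. The sequences below are the 250 bases before the annotated starts of Cxcl9 (chr5:92328080-92328329) and Cxcl10 (chr5:92348890-92349139), taken from RefSeq on GRCm38.p6. They are written 5′ to 3′ along the minus strand and are shown because transcription of both genes is known to answer to interferon. Capitals mark matches, on either strand, to the interferon-stimulated response element (ISRE) core (GAAA, any 2 bases, GAAA) or to the NF-kB consensus site.
Cxcl9: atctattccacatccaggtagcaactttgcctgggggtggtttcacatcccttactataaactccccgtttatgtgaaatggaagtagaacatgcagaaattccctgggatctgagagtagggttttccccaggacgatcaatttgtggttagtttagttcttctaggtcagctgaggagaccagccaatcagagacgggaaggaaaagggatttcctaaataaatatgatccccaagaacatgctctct
Cxcl10: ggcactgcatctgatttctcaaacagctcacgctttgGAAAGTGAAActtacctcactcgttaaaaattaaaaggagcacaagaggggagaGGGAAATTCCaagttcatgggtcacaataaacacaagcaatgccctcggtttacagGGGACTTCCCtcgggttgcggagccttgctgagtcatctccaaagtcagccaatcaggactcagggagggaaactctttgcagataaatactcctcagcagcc
The Cxcl10 window held 1 ISRE core, at bases 213 to 204 before the start, and 2 NF-kB matches, at bases 159 to 150 and 103 to 94. No match was found in the Cxcl9 window, and the interferon gamma activated site TTCNNNGAA was found in neither. None of the capital stretches overlap. Of 32851 promoter windows of this length, 2.98% held the ISRE core, 3.9% the NF-kB consensus, 7.02% the interferon gamma activated site, and 0.122% held both of the motifs found before Cxcl10. These matches are letters in the reference genome, and binding was not measured.

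Cxcl11 needs a caution. GENCODE M21 classes it as a polymorphic pseudogene, since its reading frame is open in some mouse strains and not in the reference strain. The start of its coding sequence (chr5:92363155-92363214, minus strand, 60 bases of GRCm38 as annotated in GENCODE M21) is printed with, in capitals, the 2 bases at positions 37 and 38 from the first coding base that 1 of its annotated transcripts steps over.
Cxcl11: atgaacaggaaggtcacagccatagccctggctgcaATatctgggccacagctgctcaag
Which form the CD1 mice carry was not examined, and the counts do not depend on the reading frame.

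Other genes share this ground. Art3, which encodes an ADP-ribosyltransferase, runs on the plus strand across Cxcl10 and Cxcl11, and 133 exon bases of Cxcl10 are shared with it when all annotated transcripts are used, against 0 in the basic set. Art3 stood at 1.88 to 6.41 CPM over the 13 mice, within the range of Cxcl10 in sham-vehicle mice. Its log2 fold change was 0.59 (SE 0.26) after LPS and -0.02 (SE 0.26) under CPD-4645. The plus-strand pseudogene Gm2673 shares 1582 exon bases with Cxcl11 and had no count in any of the 13 libraries. The strand column used for counting is not given in the sources used here.

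Cxcl10 was the most abundant of the 3 and had the largest fold change under CPD-4645. Its level in the 4 sham-vehicle mice was 9.70, 4.26, 1.67 and 0.79 CPM. The 5 LPS-vehicle mice had 21.4, 22.1, 117.5, 15.8 and 4.92 CPM, and the 4 LPS-CPD-4645 mice had 152, 433, 138 and 106 CPM. LPS-vehicle mouse 3 stood far above the other LPS-vehicle mice, and LPS-CPD-4645 mouse 2 far above the others of its group. LPS-vehicle mouse 5 lay below sham-vehicle mouse 1, so these groups overlapped, and LPS-vehicle mouse 3 lay above LPS-CPD-4645 mouse 4, so the LPS groups overlapped too. The group means were 4.11 ± 4.01 (SD, n = 4), 36.3 ± 45.9 (SD, n = 5) and 207 ± 152 CPM (SD, n = 4). The fitted log2 fold change was 2.93 (SE 0.78) for LPS-vehicle over sham-vehicle and 2.64 (SE 0.67), or 6.23-fold, for LPS-CPD-4645 over LPS-vehicle. These values rest partly on single mice. Without LPS-vehicle mouse 3 they became 1.88 and 3.69, without LPS-CPD-4645 mouse 2 the second became 1.97, and without sham-vehicle mouse 1 the first became 3.86.

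Cxcl9 was rare, and its 3 groups did not overlap. Sham-vehicle libraries held 3, 0, 3 and 1 counts, which is at the floor of 3 counts per library. LPS-vehicle libraries held 29, 44, 9, 17 and 47 counts, or 0.996, 0.789, 1.13, 0.465 and 1.40 CPM. LPS-CPD-4645 libraries held 45, 136, 107 and 36 counts, or 3.56, 4.76, 4.03 and 1.41 CPM. Every LPS-vehicle mouse was above every sham-vehicle mouse, and LPS-CPD-4645 mouse 4 was only just above LPS-vehicle mouse 5. The means were 0.957 ± 0.353 CPM (SD, n = 5) after LPS and 3.44 ± 1.44 CPM (SD, n = 4) with CPD-4645 added. Measured against the floor, Cxcl9 was at least 8.08-fold higher in LPS-vehicle and at least 29.0-fold higher in LPS-CPD-4645 than in sham-vehicle mice. The log2 fold change of LPS-CPD-4645 over LPS-vehicle was 1.87 (SE 0.42), or 3.65-fold, and it stayed between 1.66 and 2.14 when 1 mouse was left out at a time.

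Cxcl11 did not share the clear step under CPD-4645. Sham-vehicle mice had 0.200, 0.442, 0.199 and 0.148 CPM, LPS-vehicle mice 0.172, 1.58, 2.02, 0.246 and 0.149 CPM, and LPS-CPD-4645 mice 0.474, 2.52, 1.02 and 0.746 CPM. The counts were 7, 11, 5 and 3 in sham-vehicle, 5, 88, 16, 9 and 5 in LPS-vehicle, and 6, 72, 27 and 19 in LPS-CPD-4645 libraries. Only LPS-vehicle mice 2 and 3 lay above the sham-vehicle range, while all 4 LPS-CPD-4645 mice did. LPS-CPD-4645 mouse 1 did so on 6 counts, at 0.474 CPM against 0.442 CPM in sham-vehicle mouse 2, too few counts to separate these mice. The LPS groups overlapped, and LPS-vehicle mice 1, 4 and 5 lay below every LPS-CPD-4645 mouse. The means were 0.247 ± 0.132 (SD, n = 4), 0.832 ± 0.895 (SD, n = 5) and 1.19 ± 0.914 CPM (SD, n = 4). The log2 fold change was 1.61 (SE 0.80) for LPS-vehicle over sham-vehicle and 2.27 (SE 0.82) for LPS-CPD-4645 over sham-vehicle. With 1 mouse left out at a time the first ran from 0.99 to 2.02 and the second from 1.60 to 2.70. For LPS-CPD-4645 over LPS-vehicle the log2 fold change was 0.67 (SE 0.72), a difference smaller than its error, and without LPS-CPD-4645 mouse 2 it was -0.024. Of all 17285 genes tested, 9.68% had LPS-vehicle mice wholly above sham-vehicle mice, as Cxcl9 had, and 11.1% had LPS-CPD-4645 mice wholly above LPS-vehicle mice. LPS-CPD-4645 mice were wholly above sham-vehicle mice for all 3 genes and for 18.7% of the genes tested. For Cxcl11 this rested on the 6 counts of LPS-CPD-4645 mouse 1.

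**Figure D1:**
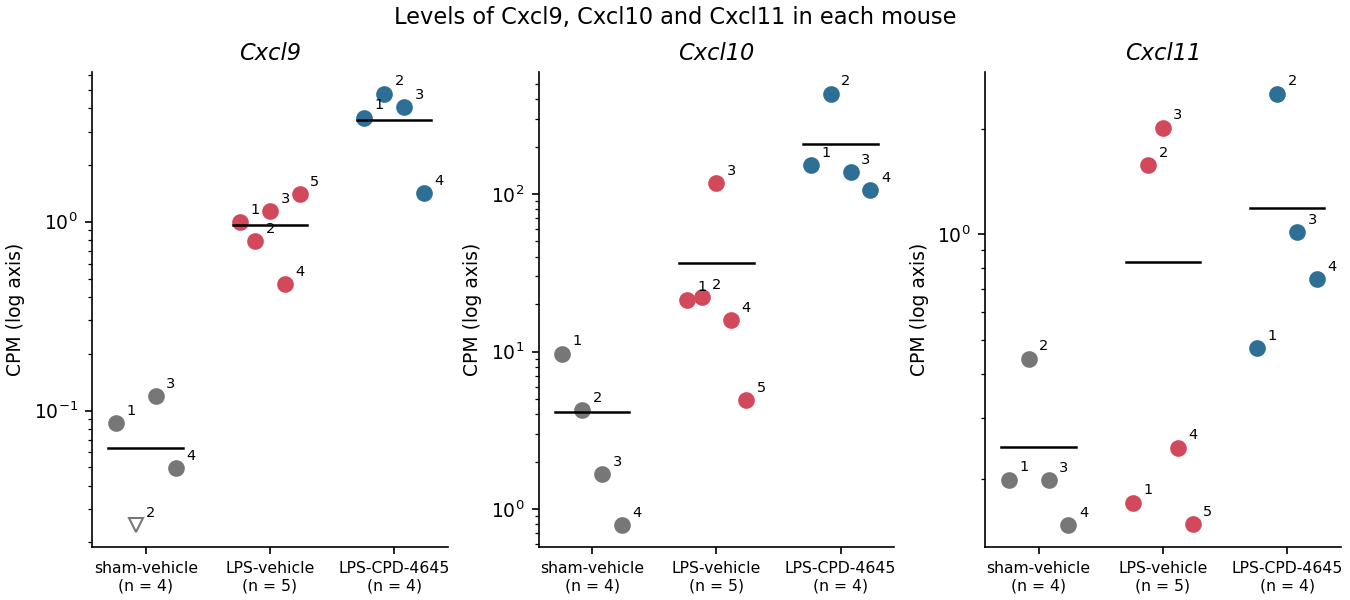
CPM of Cxcl9, Cxcl10 and Cxcl11 on log axes, 1 point per mouse numbered by replicate, with horizontal bars at the group means; the open triangle is a library with 0 counts, drawn below the lowest value. The LPS-CPD-4645 mice sit above the LPS-vehicle mice for Cxcl9, are overlapped by LPS-vehicle mouse 3 for Cxcl10, and are interleaved with LPS-vehicle mice 2 and 3 for Cxcl11.

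Per kilobase of exon, which lets the genes be set beside each other, Cxcl10 made up most of the trio in every mouse. Its length-corrected level was 0.52 to 6.38 CPM per kb in sham-vehicle, 3.24 to 77.3 in LPS-vehicle and 69.7 to 285 in LPS-CPD-4645 mice. The highest Cxcl9 level was 0.485 CPM per kb after LPS alone and 1.65 with CPD-4645 added, and that of Cxcl11 in any mouse was 0.664. Cxcl10 thus held 86.1% to 98.8% of the summed length-corrected level in LPS-vehicle mice and 98.2% to 99.2% in LPS-CPD-4645 mice. The ratio of Cxcl10 to Cxcl9 on this scale ran from 6.67 in LPS-vehicle mouse 5 to 196.8 in LPS-vehicle mouse 3, a range that contains the 65.1 to 173.0 of the LPS-CPD-4645 mice. Among 27 chemokine genes tested, Cxcl10 ranked 8 by mean length-corrected level in sham-vehicle mice, again 8 after LPS alone, and 2 with CPD-4645 added, behind Cx3cl1, the membrane-bound chemokine of neurons. Without LPS-vehicle mouse 3 the Cxcl10 rank after LPS alone was 11, and without LPS-CPD-4645 mouse 2 it was 3 in that group, alternatives chosen after seeing the data. Cxcl9 ranked 27, 26 and 22, and Cxcl11 ranked 26, 27 and 26.

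The other chemokines did not move as a block under CPD-4645. Because the choice of the trio used this contrast, they are described without a test. Of 37 other chemokine genes with a count row, those with enough counts numbered 24, and 9 of the 24 had a log2 fold change above 0 for LPS-CPD-4645 over LPS-vehicle, against 47.8% of all genes tested. Their median was -0.05, beside -0.02 over all genes. The lowest were Ccl6, Ccl7 and Ccl9, which attract monocytes and other myeloid cells, at -2.53 (SE 0.45), -2.01 (SE 0.54) and -1.89 (SE 0.43). The highest was Ccl17, a ligand of CCR4, with 6.97 to 11.3 CPM in LPS-vehicle and 30.4 to 56.6 CPM in LPS-CPD-4645 mice and a log2 fold change of 2.40 (SE 0.22). Ccl3, an attractant of myeloid cells and lymphocytes, had 1.23 (SE 0.65). After LPS, 14 of the 24 rose past the threshold of an adjusted p of at most 0.05 and a 2-fold change (edgeR quasi-likelihood test, Benjamini-Hochberg over all genes), and Cxcl12 fell. In that comparison 4.68% of all genes tested rose and 0.995% fell. Ccl7, Ccl5 and Ccl2 rose the most, Ccl7 by 5.56 on the log2 scale (SE 0.71, edgeR adjusted p = 1.7e-05). By limma-voom 8 of the 24 rose, and Ccl5 (adjusted p = 0.068) and Ccl2 (adjusted p = 0.087) did not pass.

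The receptor and the proteins that handle these ligands come next. Cxcr3 had 8, 9, 0 and 2 counts in sham-vehicle libraries and 0 in each of the 9 libraries of LPS mice. It did not pass the filter on low counts, and without that filter edgeR called it lower after LPS (adjusted p = 0.036) and in LPS-CPD-4645 mice (adjusted p = 0.049), both against sham-vehicle. In a library, 0 counts allow up to 0.0538 to 0.378 CPM. Ackr1, a decoy receptor of venular endothelium that binds many inflammatory chemokines, rose from 47.0 ± 2.01 (SD, n = 4) to 120.4 ± 48.1 CPM (SD, n = 5) after LPS, a log2 fold change of 1.36 (SE 0.19, edgeR adjusted p = 4.97e-05). It stood at 77.0 ± 5.47 CPM (SD, n = 4) with CPD-4645, and that difference of -0.65 did not reach 2-fold (SE 0.19, edgeR adjusted p = 0.014). Ackr1 overlaps Cadm3 on the same strand, so strand cannot separate reads of the shared part. Ackr3, a scavenger receptor for Cxcl11 and Cxcl12, was at 19.6 ± 1.48 (SD, n = 4), 26.1 ± 4.01 (SD, n = 5) and 39.8 ± 8.36 CPM (SD, n = 4). It passed the threshold between sham-vehicle and LPS-CPD-4645, at 1.02 (SE 0.15, edgeR adjusted p = 3.6e-05), but fell just short of 2-fold by limma-voom (0.98) and without sham-vehicle mouse 3 (0.99) or LPS-CPD-4645 mouse 2 (0.97) or 4 (0.95). With the replicate number as a block it was 0.9995. Dpp4, a peptidase that trims these ligands, was at 3.40 ± 1.40 (SD, n = 4), 2.24 ± 1.11 (SD, n = 5) and 1.38 ± 0.608 CPM (SD, n = 4), and it fell between the same groups by 1.29 (SE 0.41, edgeR adjusted p = 0.019). Ackr3 and Dpp4 were picked for mention after their values were seen.

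Transcripts of interferon gamma and interferon beta were almost absent at 28 h, and other interferon genes were not examined. Ifng had 3 counts in LPS-CPD-4645 mouse 1 and 0 in the other 12 libraries. Ifnb1 had 1 count each in sham-vehicle mouse 3 and LPS-CPD-4645 mouse 4. Neither could be tested, and at this depth their presence at lower levels was not detectable. Of 21 T and NK cell markers 8 had enough counts to be tested, Trbc1 had none in any library, and Cd3e, Cd3g, Cd8a and Cd8b1 had at most 8 counts in a library. The summed level of the 21 markers was 19.9 to 23.7 CPM in sham-vehicle, 19.5 to 25.8 in LPS-vehicle and 15.5 to 18.6 in LPS-CPD-4645 mice, most of it from Trbc2, Lck and Cd4, named after their values were seen. After LPS 2 of the 8 tested markers rose past the threshold and 6 did not pass, beside 4.68% of all genes tested that rose. Gzma, a granzyme of T and NK cells, was at least 5.63-fold higher after LPS (edgeR adjusted p = 0.0078), at 0 to 50 counts in a library, and its counts were too low for the filter when mouse 1, 2 or 5 of the LPS-vehicle group was left out. Gzmb rose with a log2 fold change of 4.28 (SE 1.14, edgeR adjusted p = 0.013), which ran from 3.79 to 7.54 with 1 mouse left out. Its sham-vehicle counts were 0, 0, 4 and 0, so the size of its rise is uncertain. The Gzmb call was lost by limma-voom (adjusted p = 0.081) and with the replicate block (edgeR adjusted p = 0.059).

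Among the inducers of interferon gamma in T and NK cells, 4 of 10 tested genes rose past the threshold after LPS. Il12b, the shared subunit of IL-12 and IL-23, had no count in any sham-vehicle library and 0 to 1.76 CPM in LPS-vehicle mice, and was at least 7.18-fold higher (edgeR adjusted p = 0.0028), a call that limma-voom did not make (adjusted p = 0.087). Il18rap, a subunit of the IL-18 receptor, rose by 4.41 on the log2 scale (SE 0.62, edgeR adjusted p = 4.8e-05), and by 4.03 to 5.43 with 1 mouse left out. Its sham-vehicle mean of 0.080 CPM was near the floor, so the size of its rise is uncertain. The receptor genes Il12rb1 and Il15ra rose by 1.93 (SE 0.25, edgeR adjusted p = 2.1e-05) and 1.05 (SE 0.17, edgeR adjusted p = 0.00020). Il15ra was just under 2-fold without sham-vehicle mouse 2 or LPS-vehicle mouse 2 or 3. Under CPD-4645 none of the 10 passed the threshold by edgeR, limma-voom or DESeq2, and 3 were lower at an unadjusted p under 0.05. One of these, Il18, named after its values were seen, was lower by adjusted p too, though under 2-fold (-0.57, SE 0.15, edgeR adjusted p = 0.0074). Without LPS-vehicle mouse 3, and again without LPS-CPD-4645 mouse 3, 1 of the 10 was lower past the threshold by edgeR, Tbx21, named after its values were seen. Il12b was at 0.490 to 1.62 CPM there.

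After LPS, 5 of 10 genes of interferon gamma signalling and 5 of 11 of type I interferon signalling rose past the threshold. The first number was 3 without sham-vehicle mouse 4, LPS-vehicle mouse 1 or LPS-vehicle mouse 2, where Irf8 and Socs1 missed the threshold. Socs1 also missed it by limma-voom (adjusted p = 0.11) and without sham-vehicle mouse 1 or LPS-vehicle mouse 3 (edgeR adjusted p = 0.096 and 0.062). With the replicate block Irf8 was at 0.99, just under 2-fold. Irf1, a transcription factor that interferon gamma induces, rose from 8.73 ± 0.792 (SD, n = 4) to 36.5 ± 17.5 CPM (SD, n = 5), or by 2.05 (SE 0.31, edgeR adjusted p = 0.00011). It was at 42.1 ± 13.4 CPM (SD, n = 4) with CPD-4645, a difference of 0.22 (SE 0.29, edgeR adjusted p = 0.60).

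Irf7, which amplifies type I interferon, rose by 3.82 after LPS (SE 0.43, edgeR adjusted p = 4.4e-06) and differed by -0.30 under CPD-4645 (SE 0.35, edgeR adjusted p = 0.55). The feedback inhibitors Socs3 and Usp18 rose by 3.69 (SE 0.34, edgeR adjusted p = 5.1e-07) and 2.49 (SE 0.36, edgeR adjusted p = 7.55e-05), and other risers included Irf8, Socs1, Stat2, Irf9 and Isg15. Irf9 overlaps Rnf31, and Irf8 overlaps Gm20388, on the same strand. Irf3, a factor that answers directly to Toll-like receptors, was the only gene of these signalling lists past the threshold under CPD-4645, and it fell. It had 23.8 to 33.9 CPM in LPS-vehicle and 10.2 to 14.0 CPM in LPS-CPD-4645 mice, without overlap, and a log2 fold change of -1.13 (SE 0.15, edgeR adjusted p = 3.1e-05). Bcl2l12 overlaps Irf3 on the other strand, so reads of the 2 may be mixed if strand was not used. In that comparison 1.7% of all genes tested rose and 4.19% fell past the threshold. Of the 10 interferon gamma signalling genes none passed it by edgeR, limma-voom or DESeq2, with 2 higher and 3 lower at an unadjusted p under 0.05. By adjusted p alone Jak1 was higher (0.20, SE 0.06, edgeR adjusted p = 0.024) and Ifngr2 lower (-0.48, SE 0.09, edgeR adjusted p = 0.00080). Ticam1 and Tyk2 of the type I list were lower, at -0.75 (SE 0.19, edgeR adjusted p = 0.0074) and -0.54 (SE 0.16, edgeR adjusted p = 0.013). All were under 2-fold and were named after their values were seen.

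After LPS, 19 of 24 tested targets of interferon gamma passed the threshold upward, and the median log2 fold change of the 24 was 2.25 against -0.00 over all genes. The largest rises were those of Nlrc5, the activator of MHC class I genes, at 3.69 (SE 0.46, edgeR adjusted p = 1.45e-05), the guanylate-binding protein Gbp5 at 3.36 (SE 0.32, edgeR adjusted p = 5.9e-07) and the immunity-related GTPase Iigp1 at 3.36 (SE 0.49, edgeR adjusted p = 7.8e-05). Under CPD-4645 the log2 fold changes of these targets over LPS-vehicle were above 0 in 18 of 24, against 47.8% of all genes tested. Their median was 0.43 against -0.02 over all genes, while 2 passed the threshold. That number was 1 without LPS-CPD-4645 mouse 2, 4 without LPS-vehicle mouse 3, 5 without LPS-vehicle mouse 1 and 6 without LPS-CPD-4645 mouse 4. Ifi47, another GTPase of this family, rose from 8.35 ± 3.44 CPM (SD, n = 5) to 24.0 ± 13.5 CPM (SD, n = 4), or by 1.56 (SE 0.35, edgeR adjusted p = 0.0029). Tgtp1 had 0.602 to 1.31 CPM in LPS-vehicle mice and 1.77 to 6.47 CPM with CPD-4645, without overlap, and rose by 2.09 (SE 0.61, edgeR adjusted p = 0.015). Ifi47 and Tgtp1 overlap Olfr56. Tgtp1 has a near-identical copy, Tgtp2, so its share of their reads is uncertain, and its edgeR adjusted p was 0.076 without LPS-CPD-4645 mouse 2. Tgtp2, named after its values were seen, differed by 0.34 under CPD-4645 (SE 0.54, edgeR adjusted p = 0.67). After LPS, Tgtp2 rose past the threshold (3.00, SE 0.67, edgeR adjusted p = 0.0037) and Tgtp1 did not (1.67, SE 0.73, edgeR adjusted p = 0.12). Gbp5 differed by 0.15 (SE 0.27, edgeR adjusted p = 0.71) and Iigp1 by 0.85 (SE 0.40, edgeR adjusted p = 0.12). Iigp1 passed when mouse 1 of the LPS-vehicle group was left out (1.21, edgeR adjusted p = 0.034), and also when LPS-CPD-4645 mouse 4 was (1.16, edgeR adjusted p = 0.030).

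**Figure D2:**
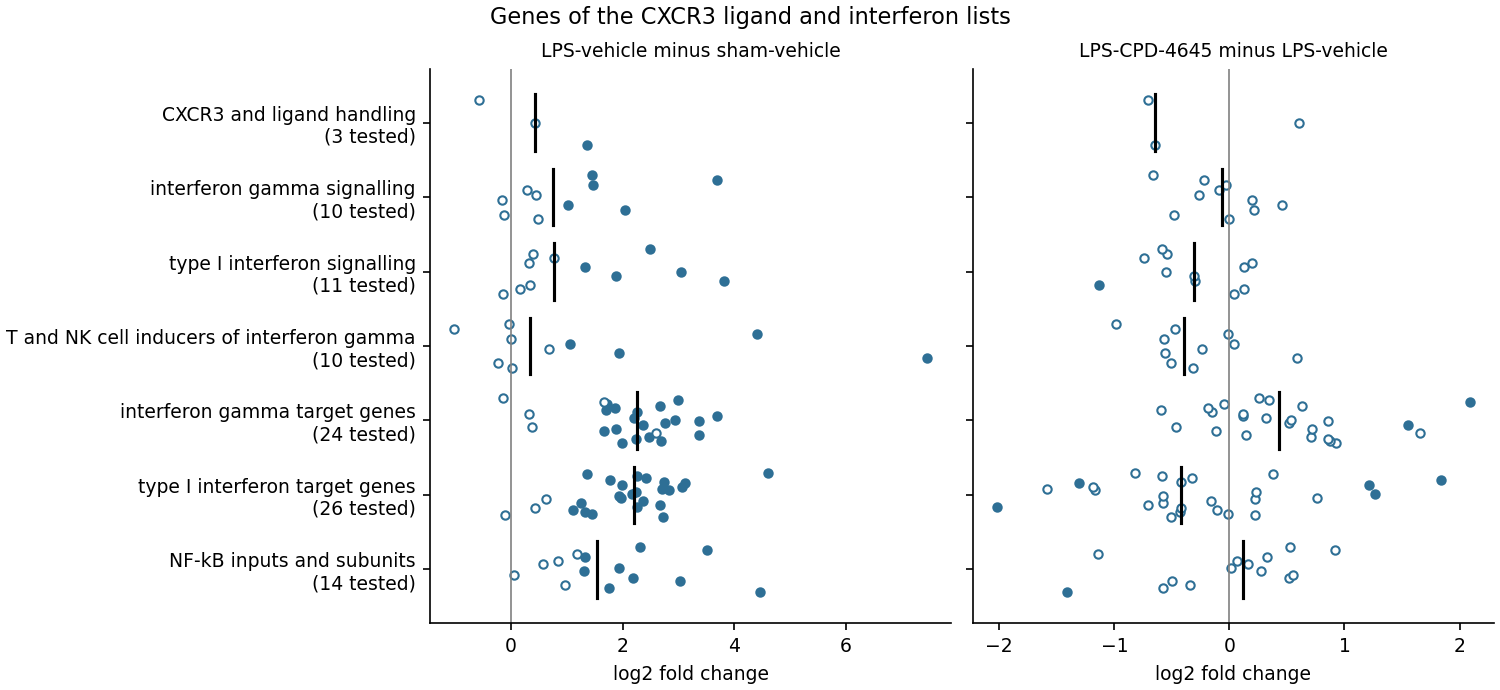
Log2 fold changes of each tested gene of the 7 lists (98 genes) for LPS-vehicle minus sham-vehicle at left and LPS-CPD-4645 minus LPS-vehicle at right; filled points passed the threshold, open points did not, and vertical bars are list medians. At left 66 of 98 points are filled, all to the right of 0, where the fitted point of Il12b at 7.46 depends on the prior count, and at right 5 are filled above 0 and 4 below it.

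Of 26 tested type I interferon targets, 23 rose past the threshold after LPS. Under CPD-4645 their median over LPS-vehicle was -0.42 against -0.02 over all genes, with 8 of the 26 above 0 and 18 below. At an unadjusted p under 0.05, 4 were higher and 8 lower. Past the threshold were 3 upward and 2 downward, beside 1.7% and 4.19% of all genes tested. The number upward was 1 without LPS-CPD-4645 mouse 2 or without LPS-vehicle mouse 5, and the number downward was 1 without LPS-vehicle mouse 2. Rsad2, an antiviral enzyme, had 3.31 to 9.83 CPM in LPS-vehicle and 14.1 to 31.5 CPM in LPS-CPD-4645 mice, without overlap, and rose by 1.84 (SE 0.37, edgeR adjusted p = 0.0011). Mx1, an antiviral GTPase, rose by 1.27 (SE 0.40, edgeR adjusted p = 0.024) and Oasl1, which restrains Irf7 translation, by 1.22 (SE 0.39, edgeR adjusted p = 0.024). Without LPS-CPD-4645 mouse 2 their edgeR adjusted p were 0.15 and 0.13. Mx1 also missed the threshold without LPS-CPD-4645 mouse 1 or without LPS-vehicle mouse 1 or 5, and Oasl1 without LPS-vehicle mouse 4 or 5, with edgeR adjusted p from 0.0504 to 0.0595. With the replicate block Mx1 was at 1.12 (edgeR adjusted p = 0.060). Oasl2 fell by 1.31 (SE 0.34, edgeR adjusted p = 0.007), from 10.4 to 49.7 CPM to 5.49 to 11.2 CPM, and by 0.79 without LPS-vehicle mouse 2, which is under 2-fold. Ifi27l2a, a mitochondrial protein of the interferon response, fell by 2.02 (SE 0.52, edgeR adjusted p = 0.007), from 1.39 to 8.29 CPM to 0.226 to 1.54 CPM. Zbp1, a sensor of nucleic acids, had the largest rise after LPS, 4.61 (SE 0.42, edgeR adjusted p = 3.9e-07).

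**Figure D3:**
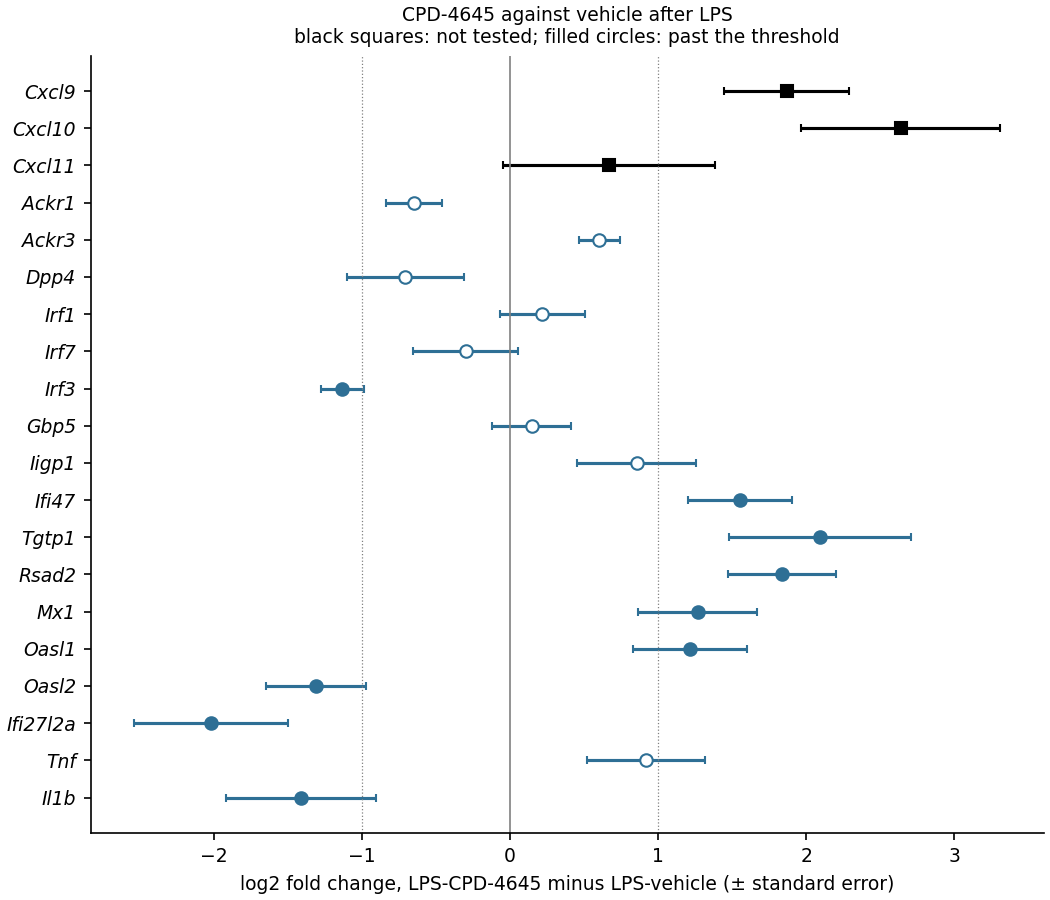
Log2 fold change of LPS-CPD-4645 minus LPS-vehicle for the trio (black squares, not tested) and for ligand-handling, signalling and target genes (circles, filled where past the threshold), with bars of 1 standard error and dotted lines at 2-fold. Cxcl10 (2.64) and Cxcl9 (1.87) lie to the right with Tgtp1, Rsad2 and Ifi47, Irf3 (-1.13) lies to the left, and the bar of Cxcl11 (0.67) crosses 0.

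Of the NF-kB inputs and subunits, 9 of 14 rose past the threshold after LPS, led by the cytokines Il1b, at 4.46 (SE 0.63, edgeR adjusted p = 4.9e-05), and Tnf, at 3.51 (SE 0.50, edgeR adjusted p = 5.9e-05), and by the subunit gene Nfkb2, at 3.03 (SE 0.34, edgeR adjusted p = 4.1e-06). Under CPD-4645 Il1b fell by 1.41 (SE 0.51, edgeR adjusted p = 0.043), from 2.27 to 22.3 CPM to 1.85 to 6.25 CPM, a call that limma-voom (adjusted p = 0.13) and DESeq2 (adjusted p = 0.069) did not make and that was lost without mouse 2 or 3 of the LPS-vehicle group or mouse 2 or 3 of the LPS-CPD-4645 group (edgeR adjusted p = 0.10, 0.11, 0.13 and 0.12). Tnf was at 2.47 to 11.2 CPM in LPS-vehicle and 9.33 to 21.8 CPM in LPS-CPD-4645 mice, a difference of 0.92 (SE 0.40, edgeR adjusted p = 0.090). It passed the threshold without LPS-vehicle mouse 2, at 1.17 (edgeR adjusted p = 0.042).

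Over the 7 lists together, 66 of 98 tested genes rose past the threshold after LPS, where 4.68% of all genes tested rose and 0.995% fell. None fell past it by edgeR, limma-voom or DESeq2, and 1 was lower at an unadjusted p under 0.05. Under CPD-4645, 5 rose and 4 fell relative to LPS-vehicle, beside the 1.7% and 4.19% of all genes tested. By limma-voom 6 rose and 3 fell, and by DESeq2 5 and 4. The number that rose was 2 without LPS-CPD-4645 mouse 2, 3 without LPS-vehicle mouse 5, 8 without LPS-vehicle mouse 1 and 9 without LPS-CPD-4645 mouse 4. The number that fell was 2 without LPS-vehicle mouse 2. Against sham-vehicle, LPS-CPD-4645 mice had 62 of the 98 higher and 2 lower past the threshold, where 6.11% and 4.98% of all genes tested were. These 2 were Dpp4 and Tbx21, a transcription factor of T and NK cells, both named after their values were seen, and both calls depended on single mice, with none left without sham-vehicle mouse 1 or 3 or LPS-CPD-4645 mouse 2. Both LPS comparisons use the same LPS-vehicle mice.

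Several cell type markers were lower under CPD-4645. The summed level of 12 neutrophil markers was 5.43 to 13.3 CPM in sham-vehicle, 77.6 to 302.1 in LPS-vehicle and 12.5 to 33.1 in LPS-CPD-4645 mice, and 9 of 10 tested markers fell past the threshold between the LPS groups, beside 4.19% of all genes. The summed level of 12 monocyte and macrophage markers was 76.2 to 116.8, 141.7 to 235.0 and 71.2 to 116.2 CPM, and 4 of 10 tested fell. For neither list was a marker at 0 in all mice of a group. The median endothelial sum was 573 CPM without LPS, 871 after LPS alone and 609 with CPD-4645 added. Its 11 tested markers did not move together after LPS, with 2 higher and 2 lower past the threshold, 6 above 0 and 5 below. Between the LPS groups 1 of the 11 fell past the threshold, a number that ran from 0 to 3 over the other fits. It was 0 with the replicate block or without any one of LPS-vehicle mice 2, 4 and 5 and LPS-CPD-4645 mice 3 and 4. The microglia sum had medians of 257, 175 and 130.2 CPM, with 1 of 9 tested markers higher and 1 lower between the LPS groups. LPS-vehicle mouse 3, with the highest Cxcl10 of its group, had neutrophil and monocyte sums within the range of the other LPS-vehicle mice. It had the lowest sums of its group for endothelial markers, at 424 CPM against 751 to 910 in the other 4, and for microglia (137 CPM), pericyte and smooth muscle (141 CPM) and astrocyte markers (1634 CPM), and the highest for neuron (8476 CPM) and erythrocyte markers (460.1 CPM). LPS-CPD-4645 mouse 2 lay within the range of its group for the neutrophil and monocyte sums. The part of cell makeup in the levels of the trio was not tested.

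**Figure D4:**
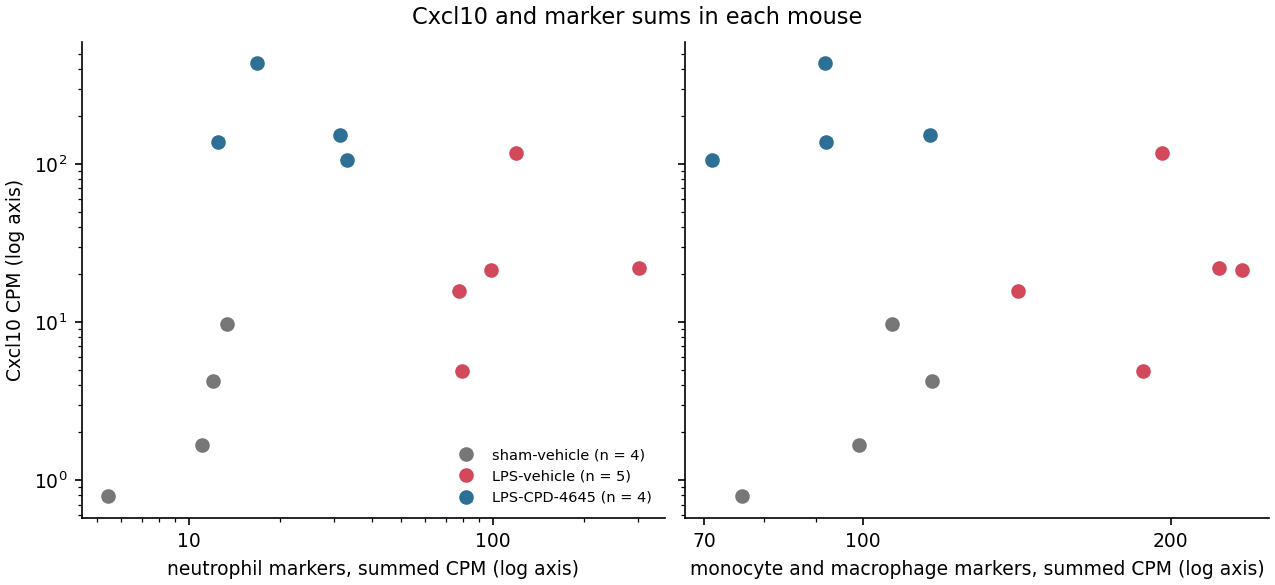
Cxcl10 CPM against the summed CPM of 12 neutrophil markers (left) and 12 monocyte and macrophage markers (right), both axes log, 1 point per mouse coloured by group. The LPS-CPD-4645 mice hold 4 of the 5 highest Cxcl10 levels, at neutrophil marker sums of 12.5 to 33.1 CPM, while the LPS-vehicle mice lie at 77.6 to 302.1 CPM.

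Likeness to the trio was measured by Pearson's r of log2 CPM over the 13 mice, among the 14843 genes whose mean level reached 1 CPM. The mice fall into 3 groups that differ in level, so the steps between groups enter r. Closest to Cxcl9 were Cbr3 (r = 0.97), Dennd3 (0.97), Lama5 (0.97), Alox12b (0.96) and Tap1 (0.96), the last a peptide transporter of MHC class I loading. Closest to Cxcl10 were Ppp1r15b (0.96), the chemokine Ccl3 (0.95), Flnc (0.95), Tex30 (0.95) and Malsu1 (0.95). Closest to Cxcl11 were Tmem192 (0.87), Actr8 (0.87), Phf7 (0.86), Cdkn2d (0.86) and Exoc3l (0.85). No gene reached 0.9 with Cxcl11, while 158 did with Cxcl9 and 77 with Cxcl10.

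Ccl3 shared most of its high and low mice with Cxcl10. It stood at 3.79, 1.93, 0.438 and 0.148 CPM in sham-vehicle, 21.4, 12.4, 77.9, 12.8 and 1.64 CPM in LPS-vehicle, and 81.4, 41.8, 51.3 and 46.7 CPM in LPS-CPD-4645 mice. LPS-vehicle mouse 3 was the highest and mouse 5 the lowest of the LPS-vehicle mice for both genes, and the order of the 4 sham-vehicle mice was the same, but LPS-CPD-4645 mouse 2 was the lowest of its group for Ccl3 and the highest for Cxcl10. Of the trio, Cxcl9 and Cxcl10 had r = 0.85, Cxcl10 and Cxcl11 0.77, and Cxcl9 and Cxcl11 0.55. With each mouse taken as its deviation from its group mean, the values were 0.11, 0.68 and 0.04. Mouse 3 of the LPS-vehicle group and mouse 2 of the LPS-CPD-4645 group were the highest of their groups for both Cxcl10 and Cxcl11, while LPS-vehicle mouse 5 was the highest of its group for Cxcl9 and the lowest for the other two.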

How the data were processed

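RNA of 13 mice, 1 library each, was sequenced from stranded mRNA libraries as 75 bp single-end reads. The authors deposited raw gene counts, made with STAR 2.5.2a on mm10 with GENCODE M9 basic genes after bcl2fastq 2.15.0.4. The strand column kept is not given in the sources used here. Of 47643 identifiers 47224 were given names from GENCODE M21. The 17285 genes that passed filterByExpr (minimum count 10, total 15), of 27934 with any count, were fitted over all 13 mice with edgeR 4.0.16 in R 4.3.3 (quasi-likelihood test, TMM factors 0.908 to 1.08). P-values were adjusted by Benjamini-Hochberg over all tested genes, and a call needed an adjusted p of at most 0.05 and a 2-fold change. The standard error is the log2 fold change divided by the square root of F. CPM used TMM-scaled totals, and the floor was 3 counts per library. Floors cover counting error only. Limma-voom (limma 3.58.1), DESeq2 1.42.0, other filters, normalizations and fits, and leaving out each mouse were tried.

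The members and gene lists were chosen with earlier results of these data known. Named genes are the trio, the genes overlapping it, genes of the 4 lists on CXCR3 and ligand handling, interferon gamma signalling, type I interferon signalling and interferon gamma inducers past the threshold in either LPS comparison, with Ifng, Ifnb1, Cxcr3 and Irf1, up to 3 rises and 3 falls of each other list, and the 5 genes most like each member. A gene of these lists that the rule names is not reported here.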

Additional observations from a re-analysis of the deposited data

Results flagged for a closer look

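In groups of 4 or 5 mice, a value was set apart when its gap to the nearest mouse, divided by the range of the group, exceeded Dixon's 95% critical value. This held in 11 of 75 groups tested, where chance gives about 1 in 20. Cxcl10 stood apart in LPS-vehicle mouse 3, at 117.5 CPM, and in LPS-CPD-4645 mouse 2, at 433 CPM. In LPS-vehicle mouse 3 Ccl3 also stood apart, at 77.9 CPM, and in LPS-CPD-4645 mouse 2 so did Rsad2, at 31.5 CPM, and Oasl1, at 5.39 CPM. LPS-vehicle mouse 2 was the highest of its group for Oasl2, at 49.7 CPM. Among sham-vehicle mice, Ifi47 was lowest in mouse 4, at 0.741 CPM, and Tgtp1 was highest in mouse 3, at 1.04 CPM. The other 3 are single libraries with 1 to 3 counts, namely Ifng in LPS-CPD-4645 mouse 1, at 0.237 CPM, and Ifnb1 in sham-vehicle mouse 3, at 0.0398 CPM, and in LPS-CPD-4645 mouse 4, at 0.0392 CPM.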

How the results depend on the processing

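The log2 fold change of Cxcl11 between the LPS groups ran from -0.024 to 1.28 when 1 mouse was left out at a time, and was below 0 without LPS-CPD-4645 mouse 2. That of Cxcl10 ran from 1.97 to 3.69. Of the genes of the 7 lists, 2 to 9 rose and 2 to 5 fell under CPD-4645 with 1 mouse left out, and 3 rose with a mean count of at least 50. Against sham-vehicle, 0 to 2 fell with 1 mouse left out, and 1 fell with DESeq2 size factors, without a filter, with only the 2 groups compared, or without the 2 shallowest libraries, an alternative chosen after seeing the data. Of the other chemokines, 14 rose after LPS by edgeR and 8 by limma-voom. Of the 5 genes most like Cxcl9, 2 were kept with a prior count of 0.5. With deviations from the group means 0 were kept for Cxcl9, 0 for Cxcl10 and 1 for Cxcl11. Without division by length the share of Cxcl9 in the trio was 1.87% in LPS-CPD-4645, that of Cxcl10 was 87.9% in sham-vehicle and 97.6% in LPS-CPD-4645, and that of Cxcl11 was 9.10%, 2.54% and 0.569% in sham-vehicle, LPS-vehicle and LPS-CPD-4645. With the short Cxcl11 transcript, a length also chosen after seeing the data, Cxcl10 held 89.4% in sham-vehicle and Cxcl11 held 8.95%, 2.52% and 0.552%. The cause was not tested. Between mice with the same replicate number, the deviations from the group means had correlations of -0.03 to 0.11, with 1 of 12 pairs above 0.1. While these correlations were low, 6 mice were most like their own number. Whether that number exceeds chance was not tested, so a weak shared deviation by replicate number remains possible. With the replicate number as a block, the log2 fold changes under CPD-4645 were 1.99 for Cxcl9, 2.45 for Cxcl10 and 0.55 for Cxcl11, and 4 list genes rose in place of 5. The bound on Cxcl9 over sham-vehicle comes from no fit and was recomputed only by leaving mice out.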
